A study of Rattus norvegicus with 6 samples.

Results

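Astrocytes take up the glutamate that neurons release and turn it into glutamine, and they move water and potassium through channels on the endfeet that wrap blood vessels. Neighbouring astrocytes are joined by gap junctions, and astrocytes near an inflammatory lesion make more of the intermediate filaments that form their cytoskeleton. NMO-IgG is the autoantibody found in patients with neuromyelitis optica, and it binds aquaporin 4 (Aqp4), the water channel of the astrocyte endfoot. Described here are 9 astrocyte genes, chosen by their symbols: the endfoot channel Aqp4, the cytoskeletal genes Gfap and Vim, the calcium-binding S100b, the glutamate transporters Slc1a2 and Slc1a3, the glutamine synthetase Glul, the gap junction protein Gja1 (connexin 43) and the glycolytic enzyme Aldoc. They were represented by 11 targets, which are transcripts listed by accession number, and by 16 array features, out of 36410 targets and 41012 features. A feature is a DNA sequence of 60 bases printed on the array in 1 spot or in 10.

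RNA came from formaldehyde-fixed, paraffin-embedded spinal cord sections of adult Lewis rats and was amplified before labelling. ENMO rats received T cells specific for myelin basic protein (MBP) on day 0 and NMO-IgG from a patient on day 4, EAEcoI rats the same T cells and human control IgG, and EAEcoP rats the T cells and PBS, which carries no antibody. NMO-IgG only and control IgG only rats received the antibody without T cells, healthy controls were untreated, and all injected rats were killed 24 hours after antibody or PBS. Each group was pooled from 5 rats (3 in the healthy control) and read on 1 array, so no spread between animals was measured, and a pool of sections holds white matter, grey matter and vessels together. In such tissue, fewer cells of a type and less RNA per cell cannot be told apart.

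Values are normalized signal intensities (NSI), which are the background-corrected intensities after quantile normalization of the 6 arrays. The scanner software marked a spot as well above background or not, and a feature is called detected here where at least 50% of its spots had that mark. Spots of the same detected 10-spot feature scattered by 0.494 (pooled SD, log2) on an array, so that a pair of arrays with 1 spot each would differ by 0.698 (1.62-fold) from the spread of the array alone. This value is pooled over features and is not the spread of a mean of 10 spots. On the 3 arrays with T cells 44.4% to 60.2% of the spots were well above background, against 35.4% to 41.7% on the 3 without. This share therefore moved with the T cells, and its part in the differences below was not tested. Slide 1 carried ENMO, EAEcoP and control IgG only, and the other 3 arrays were on slide 2.

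Some genes were read by more than 1 feature, and these did not always give the same picture, so their sequences are shown where the results turn on them. Both Gfap features read chromosome 10, minus strand, at chr10:92060835-92060894 for NM_017009 and chr10:92063083-92063142 for EF094477. The Slc1a2 features read chromosome 3, plus strand, at chr3:87993033-87993092 for AY069978, the splice variant GLT1a, and chr3:87988361-87988420 for NM_017215. The Vim feature reads chr17:87851390-87851449, plus strand, and the Glul features were listed without a position. Coordinates are those of the array files, which name no genome build, and the exon or untranslated region at each position was not looked up here. The first 30 bases of each feature are given 5′ to 3′, and for Vim all 60.
Gfap NM_017009: agcaagacaaacattcagacagaaaggaaa
Gfap EF094477: agtcacaagacatctcaaaaggctcacaat
Glul, brighter feature: atatatgggtgtgtggatatatatgtcttt
Glul, dimmer feature: ttaaattttttaaagcaaaacaagtttaga
Slc1a2 NM_017215: aaagcaactctaatcagtgtgtctatgccg
Slc1a2 AY069978: acctgaattttagccagaattaaatattcc
Vim NM_031140: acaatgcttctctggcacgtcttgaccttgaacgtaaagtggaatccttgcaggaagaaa
G and C made up 35% of the bases of the brighter Glul feature and 23.3% of the dimmer one, against 45% for Vim. For these 16 features the share ran from 23.3% to 51.7%, which is that of Aldoc.

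Of the 11 targets, 9 of 7 genes were detected on at least 1 array and entered the tests. Those of S100b and Slc1a3 were not well above background on any array, and 2 targets, Vim and Aldoc, were detected on all 6. For T cells against none, the 9 targets had a median difference of -0.03 on the log2 scale, against -0.02 for all 24944 targets tested. In 3 of the 9 targets, Gfap NM_017009, Vim and Glul, every array with T cells lay above every array without, and in 1, Gja1, every array with T cells lay below. Of all targets, 10.9% were placed like the former and 7.04% like the latter. Gfap NM_017009 and Glul were detected on arrays with T cells alone and so entered only through the group where they were high. With no filter, 3 and 1 of the 11 targets lay apart, against 7.93% and 6.95% of all targets, and with detection required on all 6 arrays Vim alone did. With limma, 0% of all targets passed an adjusted p of 0.05, and 2826 had an unadjusted p under that value. For single targets, an exact permutation test of 3 against 3 arrays cannot go below a two-sided p of 0.1. These 4 targets reached it because arrays that lie fully apart always give that value, so the test adds nothing to the count.

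**Figure D1:**
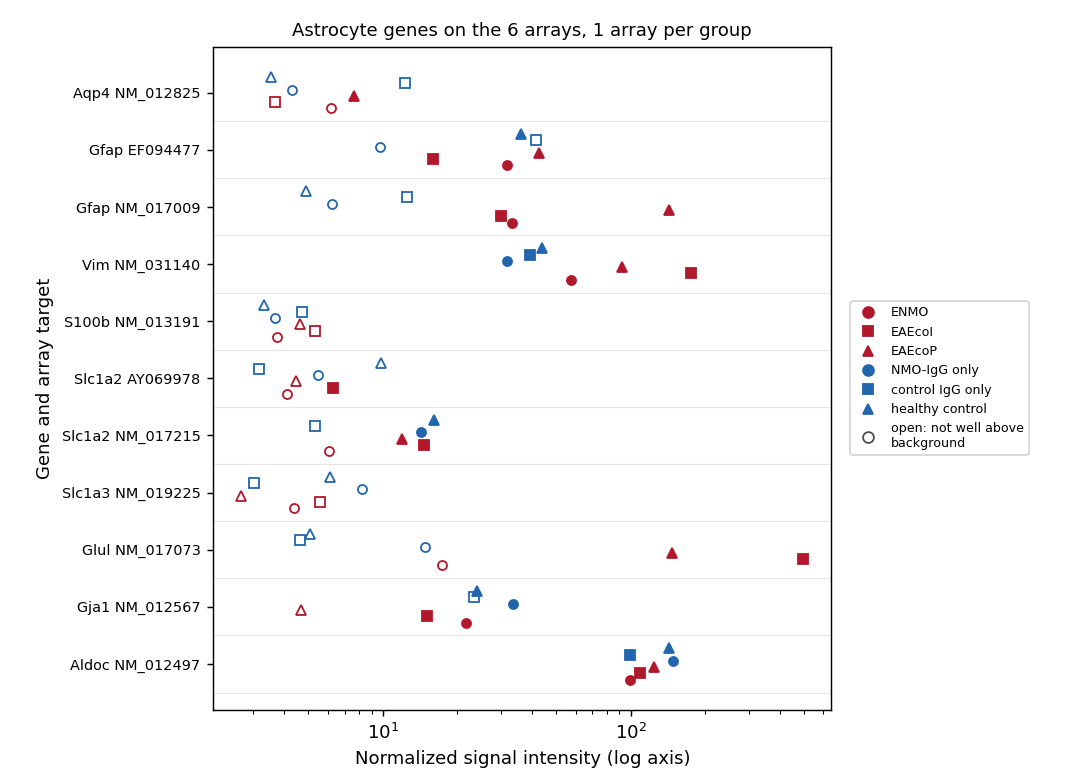
Normalized signal intensity (log axis) of the 11 targets of the 9 astrocyte genes, 1 point per array, with arrays that received T cells in red and arrays without in blue, and open symbols where the feature was not well above background. Gfap NM_017009, Vim and Glul are higher on the red arrays, Gja1 lower, and the points of Aldoc lie within a 1.5-fold range.

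Gfap encodes the glial fibrillary acidic protein, the filament by which reactive astrocytes are recognised. The NSI of Gfap NM_017009 was 33.1 for ENMO, 29.9 for EAEcoI and 143 for EAEcoP, against 6.23 with NMO-IgG only, 12.5 with control IgG only and 4.87 in the healthy control. All 10 spots were well above background on each array with T cells, and no spot was on the arrays without. The lowest spot with T cells was 19.6 and the highest without was 21.4, on control IgG only, so single spots touched while the array means did not. ENMO and EAEcoI differed by 0.15 on the log2 scale, and EAEcoP was 4.78-fold above EAEcoI, so EAEcoP stood apart from both. Gfap NM_017009 was at least 4.67-fold higher with T cells than without, as the arrays without T cells give a bound alone, and limma gave a log2 difference of 2.85 ± 0.72 (SE) with an adjusted p of 0.214. Within slide 1 it was at least 5.51-fold higher and within slide 2 at least 2.83-fold.

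The other Gfap target, EF094477, which was printed in 1 spot against 10 for NM_017009, did not follow. It read 31.7 for ENMO, 15.9 for EAEcoI and 42.5 for EAEcoP, and 9.73 with NMO-IgG only, 41.5 with control IgG only and 36.0 in the healthy control. Its arrays with and without T cells overlapped, with a log2 difference of 0.19 ± 0.69 (SE, limma, adjusted p = 0.931). It was not well above background in NMO-IgG only or control IgG only, but was so in the healthy control, where NM_017009 was not. That NM_017009 was not detected there therefore does not show that Gfap RNA was absent. NMO-IgG only was at least 3.38-fold below the healthy control in EF094477, and in NM_017009 no fold between them can be given.

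Vim encodes vimentin, a filament that astrocytes share with endothelial cells, fibroblasts and leukocytes. Its NSI was 57.6 for ENMO, 176 for EAEcoI and 92.5 for EAEcoP, and 31.7 with NMO-IgG only, 39.2 with control IgG only and 43.9 in the healthy control. Vim was detected on every array, and the arrays with T cells did not overlap those without. The gap between ENMO and the healthy control was smaller than the 1.62-fold spread of single spots, as was that between ENMO and EAEcoP. Vim was 2.58-fold higher with T cells (log2 difference 1.37 ± 0.57 SE, limma, adjusted p = 0.416), by 1.86-fold within slide 1 and 4.72-fold within slide 2. Of 9615 other targets that were detected on all arrays and varied by at least 1 on the log2 scale, the translation factor Eif5a (r = 0.995) and the ribosomal protein gene Rpl37a (r = 0.994) had the pattern most like that of Vim over the 6 arrays. As many as 78 targets had r above 0.95, and all the points share the same arrays and scaling.

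Glul encodes glutamine synthetase, which turns glutamate and ammonia into glutamine and is found in astrocytes and in oligodendrocytes. The brighter feature read 17.4 for ENMO, 499 for EAEcoI and 147 for EAEcoP, against 14.8 with NMO-IgG only, 4.62 with control IgG only and 5.06 in the healthy control. It was well above background in EAEcoI and EAEcoP alone, and ENMO lay next to NMO-IgG only. EAEcoI was 3.39-fold above EAEcoP. Over all arrays Glul was at least 8.91-fold higher with T cells (log2 difference 3.95 ± 1.09 SE, limma, adjusted p = 0.253). Without the ENMO array the log2 difference was 5.27, with an adjusted p of 0.0427 in limma. This was the only setting in which a target of the 9 genes passed the threshold, and limma then called 179 targets. The setting keeps only those arrays with T cells on which Glul was detected and through which it entered the tests. Its p therefore cannot be read as evidence of a difference with T cells. Without EAEcoI the log2 difference was 2.85.

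The dimmer Glul feature read 2.69 for ENMO, 6.83 for EAEcoI and 16.0 for EAEcoP, and 4.52, 6.05 and 3.46 with NMO-IgG only, control IgG only and the healthy control. It was well above background in EAEcoP alone, and ENMO was the lowest of the 6. For T cells against none the dimmer feature allowed no fold, and its arrays overlapped. Both features, each printed in 1 spot, had their lowest value among the arrays with T cells in ENMO. They disagreed on the EAE arrays, with EAEcoI above EAEcoP in the brighter feature and below it in the dimmer one.

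Gja1 encodes connexin 43, which with connexin 30 forms the gap junctions of astrocytes. Its NSI was 21.6 for ENMO, 15 for EAEcoI and 4.69 for EAEcoP, against 33.6 with NMO-IgG only, 23.4 with control IgG only and 23.9 in the healthy control. It was not well above background in EAEcoP and control IgG only. Each array with T cells lay below each without, but ENMO differed from the healthy control and control IgG only by less than 1.62-fold, and EAEcoP alone stood apart from its neighbour in this order. Its 10 spots were uneven, with an SD of 0.70 to 1.40 on the log2 scale on an array, and spots at the same place on different arrays went together (median r of 0.47 over 15 pairs of arrays). Taken place by place, all 10 spots were lower with T cells, by a mean log2 difference of -1.21 ± 0.49 (SD, n = 10 spots of the same pools). These spots are copies of a single feature on the same arrays and are not replicates of a condition. Gja1 was 2.31-fold lower with T cells (SE 0.65 on the log2 scale, limma, adjusted p = 0.501). Without EAEcoP the log2 difference was -0.56, and without normalization between arrays it was -0.40 and the arrays overlapped, while the median of all targets then moved to 0.70.

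**Figure D2:**
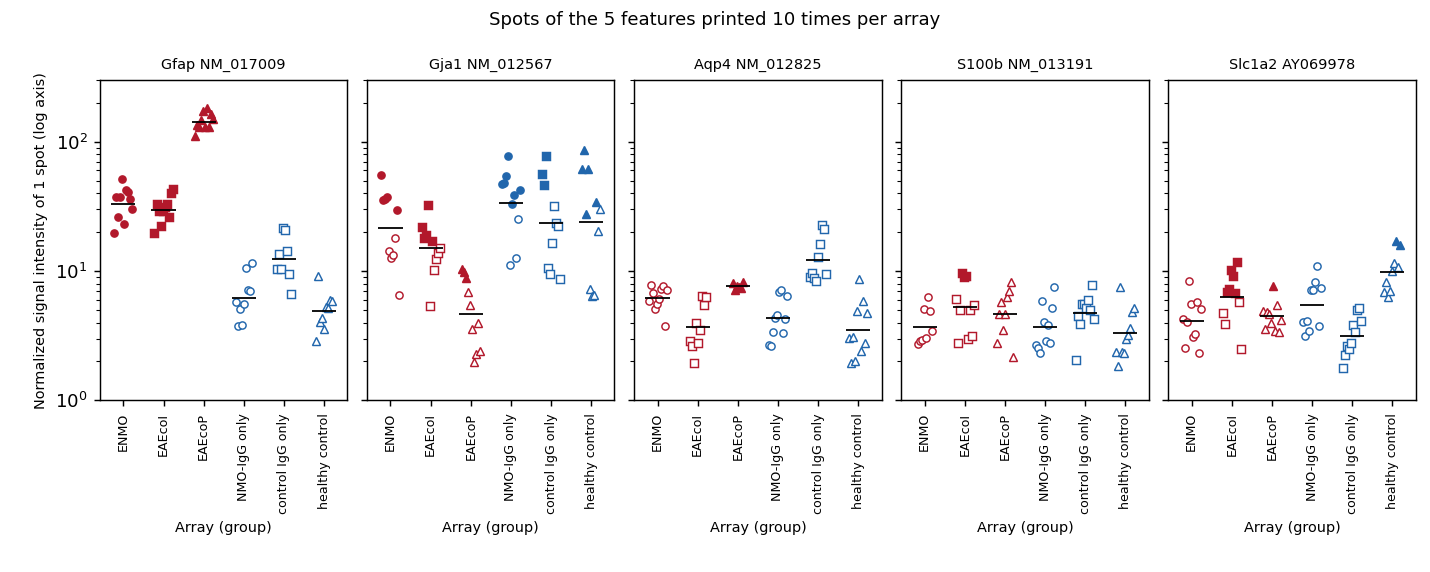
Normalized signal intensity (log axis) of single spots of the 5 features printed 10 times on each array, without spots marked as outliers. Bars give the mean of the log2 values, and open symbols are spots not well above background. Gfap NM_017009 separates the arrays with T cells (red) from those without (blue), while Gja1 has widely scattered spots on every array.

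Aqp4, the antigen of NMO-IgG, was at or near background. The feature with 10 spots read 6.16 for ENMO, 3.68 for EAEcoI and 7.67 for EAEcoP, and 4.30 with NMO-IgG only, 12.3 with control IgG only and 3.53 in the healthy control. It was well above background in EAEcoP alone, where 6 spots remained after outliers were left out, all of them with the mark. The other 3 Aqp4 features were not well above background on any array and lay between 1.81 and 10. A loss of Aqp4 RNA with NMO-IgG was therefore not detectable on these arrays, and no fold between ENMO and EAE or between NMO-IgG only and control IgG only can be given.

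Slc1a2 encodes GLT-1, the main glutamate transporter of astrocytes. Its target NM_017215 read 6.07 for ENMO, 14.7 for EAEcoI and 11.9 for EAEcoP, and 14.2 with NMO-IgG only, 5.32 with control IgG only and 16.1 in the healthy control. It was not well above background in ENMO or control IgG only, which were the lowest arrays, and both lay on slide 1. EAEcoP, also on slide 1, was detected. Against the mean of EAEcoI and EAEcoP, ENMO was at least 1.62-fold lower (log2 difference -1.13 ± 0.89 SE, limma, adjusted p = 0.888).

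The target AY069978, which reads the GLT1a variant, lay between 3.16 and 9.79 and was well above background in EAEcoI alone. Its highest value, in the healthy control, had 2 of 9 spots well above background. S100b, with 10 spots, lay between 3.30 and 5.31 and was not well above background on any array, although 3 of its 10 spots in EAEcoI were. Both features of Slc1a3, which encodes GLAST, the other astrocytic glutamate transporter, were not well above background on any array, with NSI of 1.67 to 8.2.

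Aldoc, which encodes aldolase C, the aldolase of the brain, is the target of the set that moved least among those detected on all arrays. It read 99.1 for ENMO, 109 for EAEcoI and 124 for EAEcoP, and 148 with NMO-IgG only, 99.2 with control IgG only and 143 in the healthy control. Its range of 0.58 on the log2 scale lay within the spread of single spots. The log2 difference with T cells was -0.22 ± 0.49 (SE, limma, adjusted p = 0.873), and it turned to 0.42 without normalization between arrays.

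ENMO was next compared with EAEcoI and EAEcoP, which received the same T cells without NMO-IgG. The brighter Glul feature was the only target of the 9 more than 2-fold lower in ENMO than on both EAE arrays, and no target was more than 2-fold higher than on both. Of all targets, 8.88% were lower in this way and 6.84% higher. The dimmer Glul feature was not well above background in ENMO or EAEcoI, and was at least 1.95-fold lower in ENMO than in EAEcoP. The brighter feature was at least 28.7-fold lower in ENMO than in EAEcoI and at least 8.48-fold lower than in EAEcoP. It was well above background on the EAE arrays alone, and so entered the tests only through the group where it was high. In limma its log2 difference was -3.96 ± 1.06 (SE, with the lone ENMO array assumed to vary like the other groups) and the adjusted p was 0.692. limma called 0% of 24916 targets, and 1429 had an unadjusted p under 0.05.

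Gja1 lay the other way, at 1.44-fold above EAEcoI and at least 3.91-fold above EAEcoP. Vim was 3.05-fold below EAEcoI and 1.61-fold below EAEcoP, and the latter is within the spread of single spots. Gfap NM_017009 was 4.31-fold below EAEcoP and 1.11-fold above EAEcoI, so that its direction depended on which EAE array was taken. Aldoc was within 1.25-fold of both. The 9 targets had a median log2 difference of -0.37, against 0.07 for all targets.

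NMO-IgG was compared with control IgG in rats with T cells (ENMO against EAEcoI) and without (NMO-IgG only against control IgG only). No target of the 9 moved by more than 2-fold the same way in both, against 1.42% of all targets higher and 2.66% lower. The log2 differences of an additive limma model lay between -1.58 (Glul) and 0.52 (Gja1), all with an adjusted p of 1. For Glul this is a mean of opposite values, -4.85 with T cells and 1.68 without, where neither array was well above background, and it ran from -4.37 without NMO-IgG only to 1.21 without ENMO. limma called 0% of 24944 targets, and 333 had an unadjusted p under 0.05. Each pair of arrays compared here lay on different slides, and with slide as a block limma called 57 targets, with 0 of the 9 among them. Vim was lower with NMO-IgG in both backgrounds, by 3.05-fold with T cells and, within the spread of single spots, 1.24-fold without. Gja1 was 1.44-fold higher with T cells and at least 1.44-fold higher without. Both values are under the 1.62-fold spread of single spots, which is pooled over features and is not that of the Gja1 array means. Without T cells, Vim, Aldoc and Slc1a2 NM_017215 with NMO-IgG only were within 1.38-fold of the healthy control, and Gja1 was 1.41-fold higher. Gfap EF094477, read by 1 spot, was at least 3.38-fold lower than in the healthy control, as given above.

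The 9 genes were set beside 4 longer lists of genes tied to astrocyte functions, though not all of these genes, Cldn5 and Lgals3 among them, are particular to astrocytes. The list counts in the T-cell comparison stand beside 10.9% of all targets higher, 7.04% lower and a median of -0.02. With 11 to 22 genes detected per list, counts as small as these do not set a list apart from all targets. In the T-cell comparison, the list of astrocyte identity had 22 of 26 genes well above background on some array, of which 1 was higher and 3 lower on all arrays with T cells, with a median log2 difference of -0.43. The lowest was Ndrg2, a gene of the NDRG family that astrocytes express strongly. Its NSI was 18700 for ENMO, 4470 for EAEcoI and 4410 for EAEcoP, and 123000 with NMO-IgG only, 54700 with control IgG only and 189000 in the healthy control. It was 15.1-fold lower with T cells, by -3.92 ± 0.73 on the log2 scale (SE, limma, adjusted p = 0.181). Its arrays with and without T cells did not overlap, and ENMO and control IgG only were the nearest. Slc7a10, the astrocytic transporter of serine and alanine, followed at 9.69-fold lower (adjusted p = 0.181, limma), with 29.4 to 52.3 on arrays with T cells and 163 to 708 without. Fabp7, a fatty acid-binding protein of radial glia and astrocytes, and the phosphatase gene Plpp3 were the highest, at log2 differences of 1.43 and 0.67. Fabp7 was not well above background without T cells, and the bicarbonate transporter Slc4a4, at -1.02, was the third lower gene.

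The list for handling of glutamate and ions, without the 9 genes, had 12 of 17 genes well above background and a median of -0.58. On all arrays with T cells 0 were higher and 3 lower (10.9% and 7.04% of all targets). Atp1b2, the sodium pump subunit of astrocytes, was lowest, with 530 for ENMO, 530 for EAEcoI and 429 for EAEcoP against 1010, 881 and 2770 with NMO-IgG only, control IgG only and the healthy control. It was 2.73-fold lower with T cells (log2 difference -1.45 ± 0.58 SE, limma, adjusted p = 0.406). The glutamine transporter gene Slc38a3 was 2.48-fold lower (adjusted p = 0.457, limma), with 121 in ENMO close to 130 in the healthy control, and the potassium channel gene Kcnj16 was the third. Slc38a1 and Slc1a4 had the highest differences, 1.32 and 0.70, and each was well above background on 1 array.

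The list of endfoot and gap junction genes had 11 of 12 genes well above background, with 0 higher and 3 lower (10.9% and 7.04% of all targets) and a median of -0.44. Gjb6, which encodes connexin 30, the partner of connexin 43 in astrocytes, was the lowest of all list genes. Its NSI was 129 for ENMO, 60.0 for EAEcoI and 29.9 for EAEcoP, and 1870 with NMO-IgG only, 1410 with control IgG only and 2360 in the healthy control. Each array with T cells was thus more than 10-fold below each without, on both slides. Gjb6 was 30-fold lower with T cells (log2 difference -4.91 ± 0.63 SE, limma, adjusted p = 0.162, below which no target went). The other 2 lower genes were Aqp9 and the connexin gene Gjb2, with log2 differences of -1.31 and -1.03. Dag1 (-1.34) was second lowest but its arrays overlapped, and Agrn (1.89) and Cldn5 (0.76) were the highest. Agrn was well above background in EAEcoP alone, at 121.

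The list of reactive astrocyte genes had 21 of 25 genes well above background, with 3 higher and 1 lower (10.9% and 7.04% of all targets) and a median of 0.28. Lcn2, which encodes the secreted lipocalin 2, read 73.3 for ENMO, 55.2 for EAEcoI and 308 for EAEcoP. Without T cells it read 12.7 to 18.0 and was not well above background. It was at least 7.44-fold higher with T cells (adjusted p = 0.201, limma). The metallothionein gene Mt1a was 3.48-fold higher (adjusted p = 0.281, limma) and was detected on all 6 arrays. The third higher gene was Ptx3, detected in EAEcoI and EAEcoP alone. Lcn2 and Ptx3 thus entered the count only through the group where they were high. Synm, which encodes a filament protein that pairs with vimentin and GFAP, was 4.08-fold lower (adjusted p = 0.315), and Sphk1 was second lowest through the healthy control alone, where it read 1510 against 4.01 to 27.2 elsewhere.

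**Figure D3:**
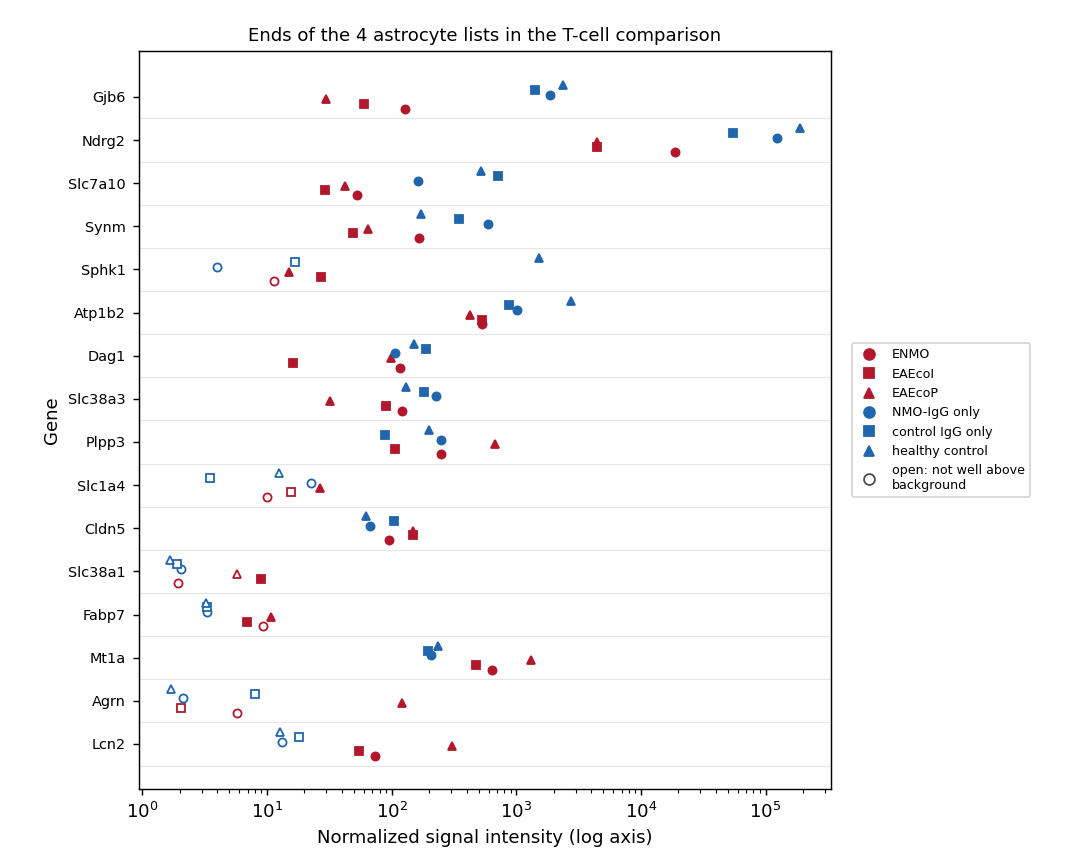
Normalized signal intensity (log axis) of the 2 highest and 2 lowest genes of each of the 4 astrocyte lists in the T-cell comparison, sorted by the log2 difference, with 1 point per array and open symbols where a gene was not well above background. In Gjb6, Ndrg2, Slc7a10, Synm, Atp1b2 and Slc38a3 every array with T cells (red) lies to the left of every array without (blue). In Lcn2, Mt1a and Fabp7 every red point lies to the right, and in the other genes the arrays overlap.

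**Figure D4:**
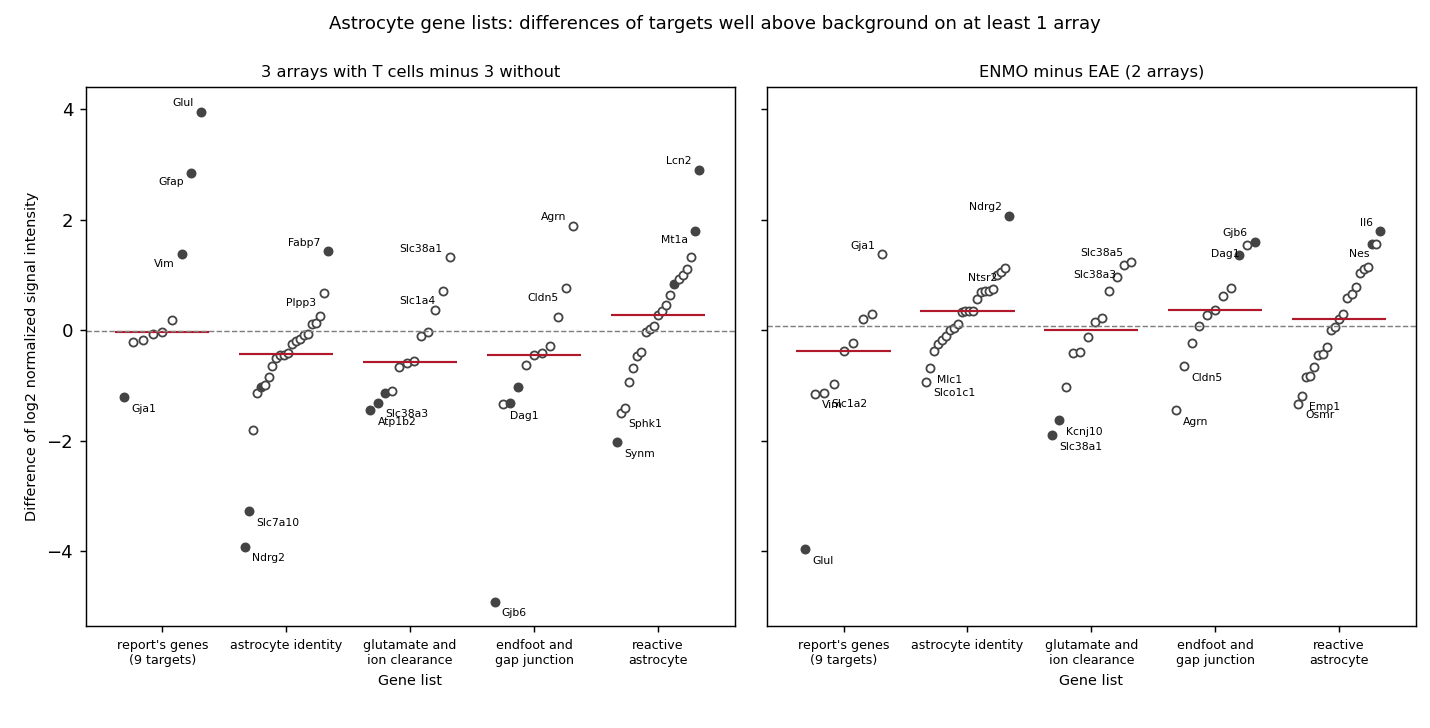
Differences of log2 normalized signal intensity of the 9 targets and of the genes of the 4 lists, 1 point per target, for T cells against none (left) and ENMO against EAE (right). Filled points are targets whose arrays with and without T cells did not overlap (left) or in which ENMO lay more than 2-fold beyond both EAE arrays (right), red bars are list medians and the dashed line is the median of all targets. Gjb6 at -4.91 and Glul at 3.95 are the ends of the left panel, and Glul at -3.96 stands alone in the right one.

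Between ENMO and EAE the same lists had medians of 0.34 (identity), 0.01 (glutamate and ions), 0.36 (endfoot and gap junction) and 0.20 (reactive), against 0.07 for all targets, and every adjusted p in limma was 0.849 or more for the genes named here. ENMO exceeded the mean of EAE by 4.20-fold in Ndrg2, 3.04-fold in Gjb6, 3.46-fold in Il6 and 2.94-fold in Nes, which encodes the filament protein nestin, and Ndrg2, Gjb6, Il6, Synm and Pdgfb, a growth factor gene, were more than 2-fold above both EAE arrays (6.84% of all targets). More than 2-fold below both were Slc38a1 and Kcnj10 (8.88% of all targets), neither of them well above background in ENMO. Ntsr2 (1.12), Dag1 (1.55), Slc38a5 (1.24) and Slc38a3 (1.18) were the others at the upper ends on the log2 scale. At the lower ends were Mlc1 (-0.69) and Slco1c1 (-0.93), Kcnj10 (-1.63) and Slc38a1 (-1.90), Cldn5 (-0.65) and Agrn (-1.45), and Emp1 (-1.19) and Osmr (-1.33). Of these 8, Mlc1 and Cldn5 alone were well above background in ENMO, and the other values are fitted differences rather than folds. For the connexins of astrocytes, Gjb6 read 129 in ENMO against 2360 in the healthy control, and Gja1 21.6 against 23.9, a gap within the spread of single spots.

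For NMO-IgG against control IgG the list medians were 0.16, 0.12, 0.49 and 0.33 in the same order, and every adjusted p in limma was 1. The highest log2 differences were Aldh1l1 (1.71) and Clu (1.64), Glud1 (1.37) and Slc1a4 (1.03), Dtna (1.18) and Dag1 (1.01), and Cd44 (1.56) and Lgals3 (1.51). The lowest were Mt3 (-1.40) and Sparcl1 (-0.82), Slc38a1 (-1.06) and Got2 (-0.42), Cldn5 (-0.64) and Agrn (-0.21), and Sphk1 (-1.67) and Emp1 (-0.32). Slc1a4 and Agrn were not well above background on any of these 4 arrays, and for Slc38a1 and Emp1 no fold can be given, so these 4 values are fitted differences alone. Cd44, Sparcl1 and Sphk1 allowed bounds alone, at 0.82, -0.82 and -0.96 on the log2 scale, and Cd44 was detected in ENMO alone of these arrays. Ndrg2, Plpp3, Il6 and Lgals3 were more than 2-fold higher with NMO-IgG than with control IgG in both T-cell backgrounds (1.42% of all targets). Against the arrays without antibody this held less well. ENMO lay below EAEcoP in Lgals3 (270 and 691) and Plpp3 (249 and 672), and NMO-IgG only lay below the healthy control in Ndrg2 (123000 and 189000). Each of these genes lay above in the other background, and Il6 did so in both (39.4 against 6.65 and 74.7 against 47). Sphk1 was placed more than 2-fold lower in both (2.66%), but without T cells neither of its arrays was well above background. Aldh1l1, an enzyme used to mark astrocytes, read 200 with NMO-IgG only and 16.3 to 45.4 on the other arrays. Clu, Glud1 and Dag1 had their lowest value in EAEcoI, at 9.21, 7.92 and 16.1, against 148, 185 and 98.6 in EAEcoP.

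Markers of other cells were counted in the same way, against 10.9% of all targets higher and 7.04% lower. None of these genes passed limma. In the microglia and macrophage list, 4 of 11 genes were higher on all arrays with T cells and 0 lower. Of the 4, Aif1, Itgam and Lyz2 were detected on arrays with T cells alone and Fcgr1 on all 6. The summed NSI of the list was 8410 to 17800 with T cells and 5310 to 7400 without (C1qb had no kept spot in ENMO). Tyrobp made up much of this sum, at 2520 to 14000 with T cells and 1250 to 2650 without, and its arrays overlapped. In the T cell list, 2 of the 5 genes detected were higher (Zap70, and Cd8a, which was detected in EAEcoP alone). The sum was 1100 to 2570 against 735 to 1030. Most of it was Cd3d, at 872 to 2350 with T cells and 594 to 918 without, whose arrays overlapped. The defining markers Cd3e and Cd2 were not well above background on any array. The sums of neuronal genes (672 to 916 with T cells, 364 to 1050 without) and oligodendrocyte genes (3130 to 6860 and 6450 to 7960) came with 0 and 2 lower genes and none higher, with Nefm missing from the healthy control. Of the 7 genes of meninges and Schwann cells none lay apart. In the endothelial list 2 of 6 genes were lower, and its sum was 212 to 382 with T cells and 274 to 424 without. The part of these cells in the readings of Gfap, Vim, Glul, Gja1 and the list genes was not tested. Neutrophils had no list of their own.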

How the data were processed

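One-colour Agilent arrays of 6 rat spinal cord pools were used, 1 per group. The authors deposited the scanner tables of 45018 spots per array, made with Agilent Feature Extraction (version 10.1.1.1 per the file headers). Their processed signal intensity has had background and spatial trends removed and is not normalized between arrays, and the deposited mean signal and background intensities served an alternative. Flags for outliers, saturation and signals well above background come from the same files, and no spot of a sample was saturated. A second deposited file per array, with 1 intensity per target, was not used.

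Outlier spots were left out, spots of a feature were averaged on the log2 scale, and the 41012 features were quantile-normalized, the normalization that the study's methods name. Each target was taken from its brightest feature. Targets detected on at least 1 array (24944) were tested in R (version 4.3.3) with limma (version 3.58.1) and Benjamini-Hochberg adjustment over all of them at a threshold of 0.05. The fits compared T cells with none (3 arrays against 3), ENMO with EAE (3 groups), and NMO-IgG with control IgG (additive with T cells). A target without a kept spot on an array drops out of comparisons that need it. For a group in which a feature was dim on every array, the bound sets the bright group's mean against the mean of, per array, the higher of the lowest detected NSI (5.53 to 11.6) and the feature's own value. The scripts were tested on simulated data.

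The 9 genes, the gene lists and the tests were chosen with earlier results of these data known. Named are all features of the 9 genes, the 2 highest and 2 lowest genes of each astrocyte list in a comparison, and the 2 targets most like each target of the 9 genes that was detected on all arrays with a log2 range of at least 1. Lcn2, Kcnj16, Aqp9, Gjb2, Ptx3, Il6 and others named by a count were added where the count was 5 or fewer. A gene of the list for glutamate and ions is not reported here and was left out of its counts, medians and figures. List genes were matched by the name in the files or through transcript accessions of a GRCr8 gene table, which held 12251 of the targets. p-values measure the spread between arrays of different treatment, and the number of arrays limits the precision.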

Additional observations from a re-analysis of the deposited data

How the results depend on the processing

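Alternatives were scaling to the 75th percentile, no normalization, normexp background correction with an offset of 50, outlier spots kept, the mean over features, each feature apart, other filters on dim targets, slide as a block, antibody as a term, the ratio of arithmetic means, and leaving out each array. The log2 differences of Gfap NM_017009, Vim, Glul and Gja1 with T cells kept their direction under each alternative that gave them a log2 difference (none for each feature apart, and Vim alone of these 4 for detection on all 6 arrays), from 0.68 to 3.59, 0.76 to 2.12, 1.36 to 5.27 and -1.66 to -0.24, as did Glul in ENMO against EAE under those run for it (-4.85 to -2.00). Normexp gave the values nearest to 0 for all 5. Gfap NM_017009 in ENMO against EAE ran from -2.11 to 0.15, the latter without EAEcoP. Of 384 log2 differences under an alternative, 50 moved by more than the spread of single spots. With arrays with T cells apart from those without there were 4 targets, 3 with normexp and with the mean over features (Glul lost in both), 3 without normalization (Gja1 lost), 5 without control IgG only (Aldoc added), and 1 (Vim) where all 6 arrays had to be well above background, which leaves 2 targets. More than 2-fold from both EAE arrays there was 1 target, 2 with 75th percentile scaling and with each feature apart, 3 without normalization, 0 with the filter on all 6 arrays, and 3 without either EAE array, which relaxes the rule. For NMO-IgG there was 0, and 3 to 5 when an array of 1 background was left out, since the other background then decides alone. limma called 0 targets with T cells, 0 to 179 over arrays left out (179 without ENMO, Glul among them, 3 without EAEcoI). For NMO-IgG it called 0, 5 without normalization, 57 with slide as a block, and 0 to 255 over arrays left out (5 without EAEcoI, 255 without control IgG only), with no target of the 9 genes among them. For ENMO against EAE it called 0 in every setting. The cause was not tested. No paired analysis was possible because each group has 1 array, so that no replicate numbers could form a block. The antibody term, which matches arrays with and without T cells by antibody, called 0 targets (smallest adjusted p of the 9 genes 0.248). Without normalization the median log2 difference of all targets was 0.70 with T cells and -0.62 in ENMO against EAE.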
